A study of Mus musculus with 8 samples.

Results

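The miR-181 family is a seed family of 4 mature mouse miRNAs, mmu-miR-181a-5p, mmu-miR-181b-5p, mmu-miR-181c-5p and mmu-miR-181d-5p (written below without the species prefix), read here in culture medium of primary mouse myocytes on Agilent miRNA arrays. The 4 members were defined by their names among 1881 mouse miRNAs on the array, and the family was singled out with the differences of miR-181a-5p and miR-181d-5p in these data already known. The levels and differences of the members below are therefore a description, given with their errors and without p-values.

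A miRNA guides silencing complexes to messages that pair with its seed, bases 2 to 8 from the 5′ end, so members of a seed family can share targets. In mouse myoblasts, miR-181a rises during differentiation and targets Hox-A11, a repressor of the muscle regulator MyoD. In thymocytes, miR-181a tunes the strength of T cell receptor signalling. miRNAs also leave cells in vesicles and protein complexes, and the arrays read the small RNA found outside the cells.

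The samples were media of co-cultured myocytes, with a bottom chamber and an insert of fewer cells divided by a 0.4 µm porous membrane that lets medium pass. Myocytes came from leg muscle of newborn mice aged 1 to 3 days on the B6SJL background, labelled male. All mice carried a human SOD1 transgene, either with the G93A mutation, B6SJL(Tg-SOD1*G93A)1Gur/J, which causes motor neuron disease in these mice, or with the normal sequence, B6SJL(Tg-SOD1)2Gur/J, called WT. Written as bottom chamber/insert, the groups were G93A/G93A (n = 3), G93A/WT (n = 3) and WT/WT (n = 2), so the WT/WT controls also overexpress human SOD1 and no group lacks a transgene. Medium was taken at 2 days in vitro, and 1 array was run per sample. The reverse mixed combination, with WT cells in the bottom chamber and G93A cells in the insert, and medium that had held no cells were not analysed here. The culture media contained foetal bovine or horse serum, and a bovine or equine miRNA with the same letters as the mouse one gives the same signal. In medium, fewer cells that release a miRNA and less release per cell cannot be told apart.

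The arrays detected 451 to 483 miRNAs in G93A/G93A, 497 to 563 in G93A/WT and 450 to 461 in WT/WT. The sum of all signals was 119395 to 135292, 143852 to 203040 and 115265 to 139786 units in the same groups. Signals were therefore scaled to a common 75th percentile, with factors of 0.973 to 1.31 in G93A/G93A, 0.593 to 0.933 in G93A/WT and 1.13 to 1.44 in WT/WT, and are given on the log2 scale. Row 1 of the single slide held the G93A/WT arrays and WT/WT 1, and row 2 held the G93A/G93A arrays and WT/WT 2, so the G93A groups never shared a row. The muscle miRNAs miR-206-3p, miR-133b-3p, miR-133a-3p and miR-1a-3p were detected on all 8 arrays, and none of the 4 passed limma's test in any comparison (0 also at an unadjusted p under 0.05). Their list, which also holds miR-499-5p and the never detected miR-208b-3p, had summed scaled signals of 4094 to 5063 in G93A/G93A, 4341 to 5258 in G93A/WT and 4522 to 5194 in WT/WT.

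The 4 mature sequences are shown because the shared seed defines the family and the few differing bases are all that separates the paralogues. They are RefSeq's, on build GRCm38.p6, 5′ to 3′, with the seed in capitals.
miR-181a-5p: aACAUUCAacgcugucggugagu
miR-181b-5p: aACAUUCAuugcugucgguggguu
miR-181c-5p: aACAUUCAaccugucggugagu
miR-181d-5p: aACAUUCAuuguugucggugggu
The seed ACAUUCA was found in 4 of 1679 mature miRNA names of that table, and these were the 4 members. Counted from 1 at the 5′ end, miR-181b-5p differs from miR-181a-5p by A9U, C10U and A21G and by 1 extra base at its end. miR-181d-5p differs from miR-181a-5p by A9U, C10U, C12U and A21G. miR-181b-5p and miR-181d-5p differ by the single substitution C12U and the end base. miR-181c-5p has all 22 of its bases in common with miR-181a-5p and lacks 1 base after the seed. The probe sequences were not used here, and how far a probe of one paralogue also binds another was not tested. Different probes read the members, so the level of one member is not set against the level of another below.

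The 4 members come from 6 precursor genes in 3 clusters. Mir181a-1 (chr1:137966455-137966541, plus strand) lies 97 bases before Mir181b-1 (chr1:137966639-137966718, plus strand). Mir181a-2 (chr2:38852735-38852810, plus strand) lies 1019 bases before Mir181b-2 (chr2:38853830-38853918, plus strand), and both overlap the protein-coding gene Nr6a1 and the long noncoding RNA Nr6a1os in the annotation. Mir181c (chr8:84178873-84178961, minus strand) lies 85 bases from Mir181d (chr8:84178716-84178787, minus strand), with no other annotated gene over them in the table used. miR-181a-5p and miR-181b-5p have identical copies in their pairs of precursors, so the arrays cannot tell which cluster gave the signal. The other arms, miR-181a-1-3p, miR-181a-2-3p, miR-181b-1-3p, miR-181b-2-3p, miR-181c-3p and miR-181d-3p, were on the array, and 0 of these 6 were detected on any of the 8 arrays. All 10 miR-181 names on the array matched a RefSeq sequence.

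All members were dim. The scanner software lists a miRNA as detected when its signal exceeds 3 times its own error, and lists it at 0.1 otherwise. The 26 detected readings of the 4 members lay at 3.45 to 10.4 times their error, with a median of 6.09. Over the 538 miRNAs detected on at least 2 arrays, which are the ones tested, the median of 3853 detected readings was 10.2. miR-181b-5p stood highest above its limit, at 6.10 to 10.4 times its error on all 8 arrays. miR-181d-5p was also detected on all 8 arrays, at 4.08 to 7.12 times its error. miR-181a-5p (3.71 to 5.81) and miR-181c-5p (3.45 to 7.50) were detected on 5 arrays each, so their low values are upper limits and not levels.

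**Figure D1:**
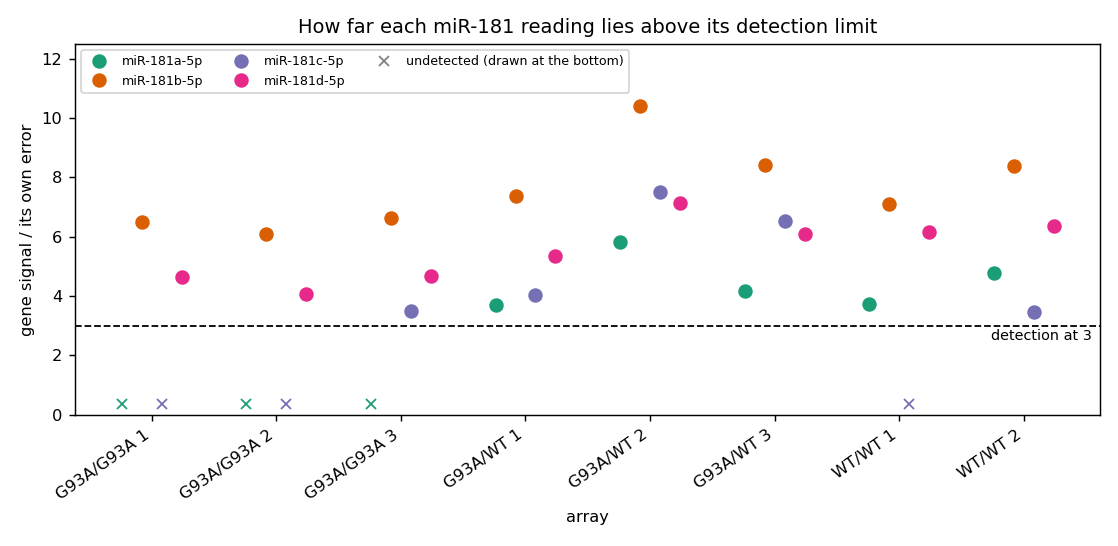
Signal of each member divided by its own error (vertical axis, no unit) on each of the 8 arrays (horizontal axis), with the detection limit of 3 dashed and undetected readings drawn as crosses at the bottom. miR-181b-5p lies between 6.10 and 10.4, and the crosses are miR-181a-5p on the 3 G93A/G93A arrays and miR-181c-5p on G93A/G93A 1, G93A/G93A 2 and WT/WT 1.

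miR-181a-5p, the member known from myoblast differentiation, was undetected on every G93A/G93A array and detected on every other one. Its signals before scaling were listed at 0.1 on G93A/G93A 1, G93A/G93A 2 and G93A/G93A 3. They were 3.96, 7.27 and 4.61 units on G93A/WT 1, 2 and 3, and 3.53 and 5.13 units on WT/WT 1 and 2. After scaling, the log2 signals were 1.89, 2.11 and 1.80 in G93A/WT (mean 1.93 ± 0.16, SD, n = 3) and 2.34 and 2.54 in WT/WT (mean 2.44 ± 0.14, SD, n = 2). The groups with detected readings did not overlap, G93A/WT lying below WT/WT. Detection on no G93A/G93A array and on every other array was seen for 7 of 538 tested miRNAs (1.3%).

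How much lower miR-181a-5p was in G93A/G93A depends on the level given to an undetected reading. The smallest error listed for it, 0.950 units, puts its detection limit at 2.85 units. At the WT/WT mean it would have read 4.69, 4.15 and 5.58 units on G93A/G93A 1, 2 and 3, above that limit on each. At the G93A/WT mean it would have read 3.30, 2.91 and 3.92 units, again above the limit but by as little as 0.06 of a unit on G93A/G93A 2. With the 3 arrays at this limit (scaled signals of 3.30, 3.73 and 2.77), its level in G93A/G93A was at least 1.67-fold lower than in WT/WT and at least 1.18-fold lower than in G93A/WT. These bounds are approximate, since the error was taken from an array that detected the miRNA. With undetected readings at the common floor of 1.52 units (log2 0.60), the fitted difference was −1.84 ± 0.12 from WT/WT and −1.33 ± 0.11 from G93A/WT (limma's SE), and these values and their SEs depend on the floor. The fitted difference of G93A/WT from WT/WT, which needs no floor, was −0.51, a 1.42-fold lower level. Its SE of 0.12 does depend on the floor, since the 3 groups share 1 spread and the G93A/G93A arrays at the floor have none. That SE was 0.10 with 2 times the floor and 0.16 with the undetected arrays at the miRNA's own limit. With undetected readings at the miRNA's own limit, a setting chosen after seeing the data, the difference of G93A/G93A was −0.74 from WT/WT and −0.23 from G93A/WT, and −0.23 did not pass limma's threshold.

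miR-181b-5p, which shares both of its clusters with miR-181a, was detected throughout. Its signals before scaling were 9.55, 9.54 and 10.8 units on G93A/G93A 1, 2 and 3, 12.2, 23.6 and 15.3 units on G93A/WT 1, 2 and 3, and 10.4 and 14.8 units on WT/WT 1 and 2. The scaled log2 signals were 3.47, 3.64 and 3.39 in G93A/G93A (mean 3.50 ± 0.13, SD, n = 3), 3.51, 3.81 and 3.53 in G93A/WT (mean 3.62 ± 0.17, SD, n = 3), and 3.91 and 4.07 in WT/WT (mean 3.99 ± 0.11, SD, n = 2). Both WT/WT arrays lay above all G93A/G93A and G93A/WT arrays, while the G93A/G93A and G93A/WT arrays overlapped. The log2 difference from WT/WT was −0.49 ± 0.14 in G93A/G93A and −0.37 ± 0.14 in G93A/WT, and G93A/G93A differed from G93A/WT by −0.11 ± 0.12 (SE).

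miR-181d-5p, from the third cluster, had the same order with a wider gap. Its signals before scaling were 4.83, 4.42 and 5.26 units on G93A/G93A 1, 2 and 3, 6.20, 10.3 and 7.76 units on G93A/WT 1, 2 and 3, and 6.86 and 7.88 units on WT/WT 1 and 2. The scaled log2 signals were 2.48, 2.53 and 2.35 in G93A/G93A (mean 2.46 ± 0.09, SD, n = 3), 2.53, 2.60 and 2.55 in G93A/WT (mean 2.56 ± 0.04, SD, n = 3), and 3.30 and 3.16 in WT/WT (mean 3.23 ± 0.10, SD, n = 2). The WT/WT arrays again lay above all others, and the G93A/G93A and G93A/WT arrays overlapped. The log2 difference from WT/WT was −0.77 ± 0.10 in G93A/G93A, a 1.71-fold lower level, and −0.67 ± 0.10 in G93A/WT, a 1.59-fold lower level (SE). G93A/G93A differed from G93A/WT by −0.10 ± 0.09 (SE). Without scaling the G93A/WT arrays no longer lay below WT/WT and the difference was 0.10, while the 538 tested miRNAs then had a median difference of 0.79. Relative to the median over all tested miRNAs, miR-181d-5p stood at −0.71 with scaling and −0.69 without it.

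miR-181c-5p, transcribed beside miR-181d, had another order of groups. It was listed at 0.1 on G93A/G93A 1 and 2 and read 3.73 units on G93A/G93A 3. It read 4.35, 12.9 and 10.7 units on G93A/WT 1, 2 and 3. It was listed at 0.1 on WT/WT 1 and read 3.53 units on WT/WT 2. Its detected readings outside G93A/WT were thus a single array in each group, both close to the detection limit. The scaled log2 signal was 1.86 on G93A/G93A 3, 2.02, 2.94 and 3.02 in G93A/WT (mean 2.66 ± 0.55, SD, n = 3) and 2.00 on WT/WT 2. The G93A/WT arrays lay above all detected readings of the other groups. However, G93A/WT 1, at 2.02, lay only just above WT/WT 2, at 2.00, by much less than the SD of its own group. The upper limit of the undetected WT/WT 1 array, at log2 2.14, was higher than G93A/WT 1. With undetected readings at the floor, G93A/WT exceeded WT/WT by 1.36 ± 0.57 on the log2 scale (SE). G93A/G93A differed from G93A/WT by −1.64 ± 0.51 and from WT/WT by −0.28 ± 0.57 (SE). With them at 3 times the member's smallest error, a setting chosen after seeing the data, these differences were 0.59, −0.76 and −0.17. Detection on every G93A/WT array but not on all arrays of either other group was seen for 30 of 538 miRNAs (5.58%).

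**Figure D2:**
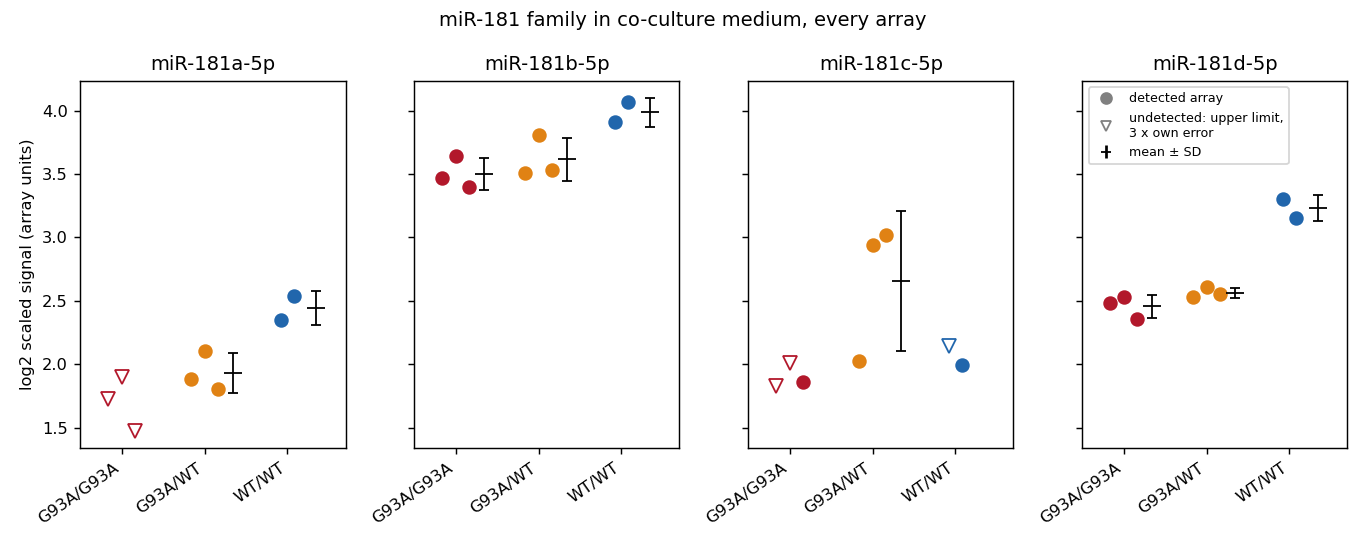
Log2 scaled signal (array units) of the 4 members on every array, by group (horizontal axis), with filled points for detected readings, open triangles for the upper limit of undetected ones, and the mean ± SD where every array of the group detected the miRNA. miR-181b-5p and miR-181d-5p lie highest on both WT/WT arrays, miR-181a-5p is undetected on the 3 G93A/G93A arrays, and miR-181c-5p reaches 2.94 and 3.02 on G93A/WT 2 and 3.

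The members' differences were set beside those of all 538 tested miRNAs, whose median difference from WT/WT was −0.01 in G93A/G93A and 0.04 in G93A/WT. Between the G93A groups it was −0.10, G93A/G93A minus G93A/WT. Between G93A/G93A and WT/WT, limma with Benjamini-Hochberg adjustment at 0.05 called 46 miRNAs (8.55%), of which 26 were lower (4.83%), among them 2 of the 4 members, miR-181a-5p and miR-181d-5p, and 20 were higher (3.72%), with no member. Between G93A/WT and WT/WT it called 21 miRNAs (3.9%), of which 4 were lower (0.743%), among them miR-181d-5p, and 17 were higher (3.16%), with no member. Between G93A/G93A and G93A/WT it called 57 miRNAs (10.6%), of which 28 were lower (5.2%), among them miR-181a-5p, and 29 were higher (5.39%), with no member. Since calls in these comparisons led to the choice of the family, nothing is read from the members' share. The comparisons share groups, so they do not count as separate evidence. The slide row moves with the groups, and within a row each G93A group can be set against 1 WT/WT array. Within row 2, G93A/G93A differed from WT/WT 2 by −1.94 for miR-181a-5p, −0.57 for miR-181b-5p, −0.98 for miR-181c-5p and −0.70 for miR-181d-5p. Within row 1, G93A/WT differed from WT/WT 1 by −0.41, −0.29, 2.06 and −0.74 for the same members. The signs were those over all arrays, and miR-181d-5p no longer passed limma's threshold in either row.

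Non-overlap of arrays is common with groups this small. All G93A/G93A arrays lay below both WT/WT arrays for 122 of 538 miRNAs (22.7%), among them miR-181a-5p, miR-181b-5p and miR-181d-5p, and above both for 97 (18%), with no member. With undetected readings at the floor, all G93A/WT arrays lay below both WT/WT arrays for 140 miRNAs (26%), among them the same 3 members, and above both for 104 miRNAs (19.3%), among them miR-181c-5p. All G93A/G93A arrays lay below all G93A/WT arrays for 103 miRNAs (19.1%), among them miR-181a-5p and miR-181c-5p, and above all of them for 84 (15.6%), with no member.

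**Figure D3:**
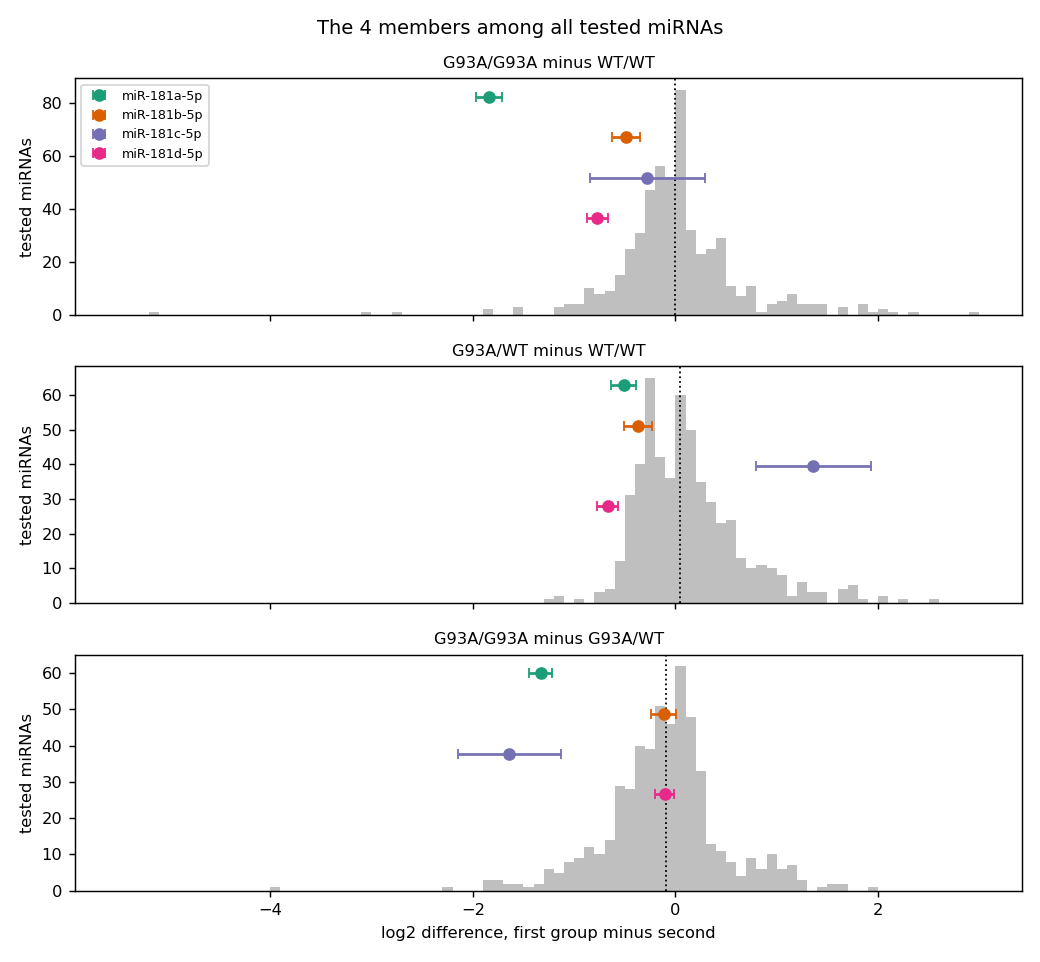
Log2 difference (horizontal axis, first group minus second) of the 4 members, as coloured points with limma's SE, over a histogram of the 538 tested miRNAs (vertical axis, number of miRNAs) with their median dotted, for the 3 comparisons. miR-181d-5p lies at −0.77 and −0.67 against WT/WT and at −0.10 between the G93A groups, and miR-181c-5p has the widest error bars.

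Ratios between members on the same array need no scaling. The detected readings lay at only 3.45 to 10.4 times their error, and these errors were not carried into the ratios. How often ratios of other miRNAs separate the groups was not tested. A small gap between groups therefore cannot show that 2 members changed unequally. The log2 ratio of miR-181d-5p over miR-181b-5p, which differ by a single substitution, was −0.98, −1.11 and −1.04 on the G93A/G93A arrays (mean −1.04 ± 0.06, SD, n = 3), −0.98, −1.20 and −0.98 on the G93A/WT arrays (mean −1.05 ± 0.13, SD, n = 3), and −0.61 and −0.91 on the WT/WT arrays (mean −0.76 ± 0.22, SD, n = 2). Every G93A/G93A and G93A/WT array lay below both WT/WT arrays, but WT/WT 2 was 0.06 from the nearest of them and the WT/WT arrays differed by 0.31 from each other. The ratio of miR-181a-5p over miR-181b-5p, which share their clusters, was −1.62, −1.70 and −1.73 in G93A/WT (mean −1.68 ± 0.06, SD, n = 3) and −1.56 and −1.53 in WT/WT (mean −1.55 ± 0.02, SD, n = 2). It could not be formed in G93A/G93A. The ratio of miR-181a-5p over miR-181d-5p overlapped between G93A/WT (−0.75 to −0.50) and WT/WT (−0.96 and −0.62).

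The ratio of miR-181c-5p over miR-181b-5p was the least even. It was −1.53 on G93A/G93A 3, −1.48, −0.87 and −0.52 on the G93A/WT arrays, and −2.07 on WT/WT 2. The G93A/WT arrays lay highest, with G93A/WT 1 close to the single G93A/G93A reading.

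**Figure D4:**
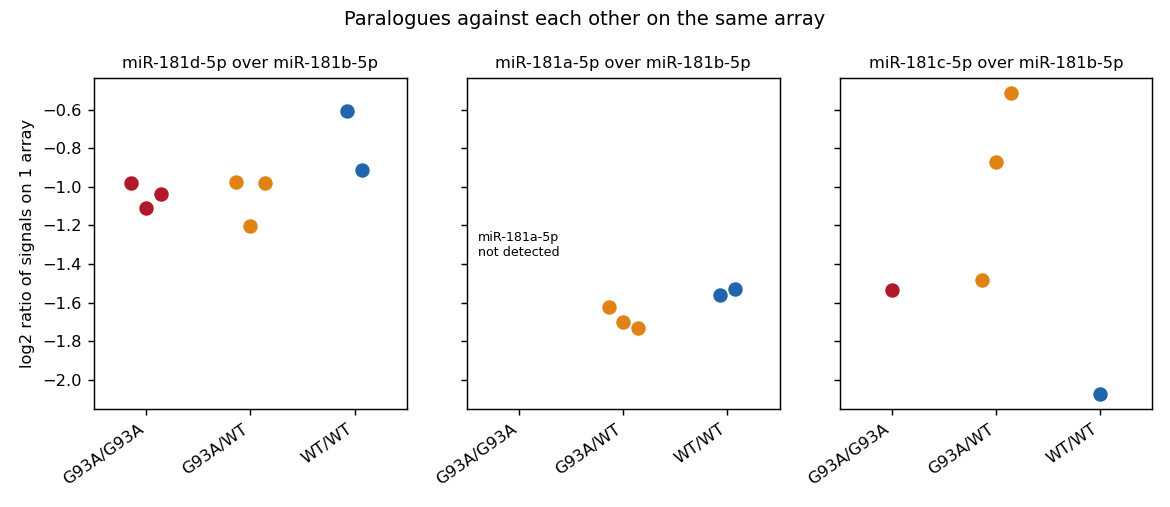
Log2 ratio of the signals of 2 members on the same array (vertical axis) by group, 1 point per array on which both were detected. The ratio of miR-181d-5p over miR-181b-5p averages −1.04 in G93A/G93A, −1.05 in G93A/WT and −0.76 in WT/WT, and that of miR-181c-5p over miR-181b-5p spans −1.48 to −0.52 in G93A/WT.

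In the authors' deposited table of processed values of the same arrays, made by a normalization that the sources used here do not give, miR-181a-5p stood at 0.218, 0.270 and 0.254 units in G93A/G93A, at 4.15, 0.917 and 1.65 units in G93A/WT and at 4.14 and 6.19 units in WT/WT. It was lowest in G93A/G93A there too, but its G93A/WT and WT/WT values overlapped, unlike its scaled signals. Its G93A/WT values ran the other way from the scanner signals, however, since G93A/WT 2 was the brightest of these arrays by signal and the lowest in the authors' table. The authors' values of miR-181d-5p were 5.11, 5.76 and 5.17 units in G93A/G93A, 5.62, 6.30 and 6.91 units in G93A/WT and 9.22 and 8.71 units in WT/WT, with both WT/WT arrays above all others. For miR-181b-5p the authors' table gave 12.1, 13.0 and 10.8 units in G93A/G93A, 10.7, 12.3 and 10.8 units in G93A/WT and 15.2 and 18.4 units in WT/WT, in the same arrangement. For miR-181c-5p it gave 0.308, 0.321 and 6.86 units in G93A/G93A, 3.69, 1.31 and 1.94 units in G93A/WT, and 0.247 and 5.07 units in WT/WT. The G93A/WT arrays were not the highest in the authors' values for miR-181c-5p, where G93A/G93A 3 and WT/WT 2 lay above them. Its G93A/WT values also ran the other way from the scanner signals. With a floor of 1.77 units, the log2 difference of G93A/WT from WT/WT was −0.36, against 1.36 from the scaled scanner signals. That floor replaced the values of G93A/WT 2, WT/WT 1, G93A/G93A 1 and G93A/G93A 2, so the sign of −0.36 depends on it. On the authors' scale with this floor, miR-181a-5p in G93A/G93A differed from WT/WT by −1.52 and no longer passed limma's threshold. The floor replaced its values on all G93A/G93A arrays and on G93A/WT 2 and 3. The −1.52 and its SE of 0.39 therefore depend on the floor.

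**Figure D5:**
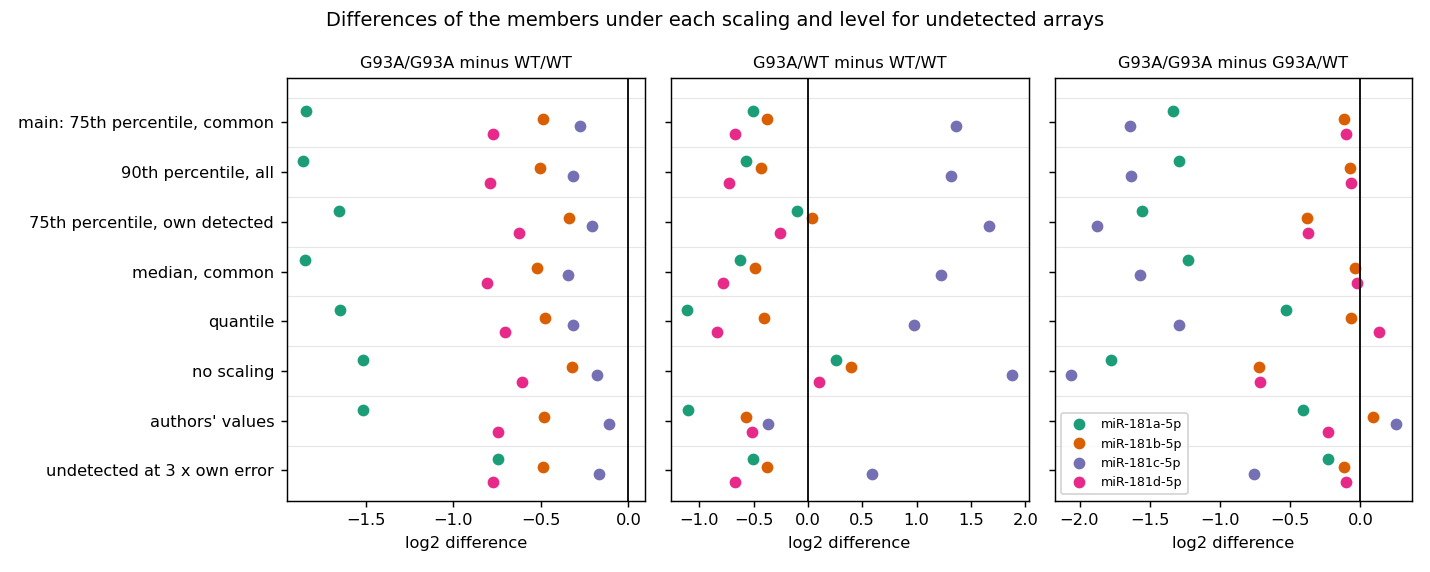
Log2 difference of each member (horizontal axis, first group minus second) under 8 settings of scaling, source of the values and level given to undetected readings (vertical axis). Against WT/WT, miR-181d-5p in G93A/G93A stays between −0.81 and −0.61, whereas miR-181c-5p in G93A/WT lies between 0.59 and 1.88 over the settings with scanner signals and at −0.36 with the authors' values. The sign of −0.36 depends on the floor of 1.77 units set on the authors' values.

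The members' patterns over the 8 arrays were compared with those of other miRNAs by Pearson's r of the log2 scaled signal, as a description, since the arrays share groups, slide rows and scaling. miR-181b-5p and miR-181d-5p were the most alike members (r = 0.879, rho = 0.952). miR-181a-5p had r = 0.761 with miR-181b-5p and 0.742 with miR-181d-5p. miR-181c-5p had r = 0.425 with miR-181a-5p, 0.003 with miR-181b-5p and −0.22 with miR-181d-5p, its cluster neighbour.

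Beyond the family, the miRNAs nearest to miR-181b-5p were miR-99b-5p (r = 0.885, rho = 0.762) and miR-652-3p (r = 0.881, rho = 0.714). Those nearest to miR-181d-5p were miR-127-3p (r = 0.957, rho = 0.738), miR-652-3p (r = 0.946, rho = 0.714) and miR-411-3p (r = 0.930, rho = 0.810), each out of 422 miRNAs detected on all arrays. By r, all of these were closer than miR-181b-5p and miR-181d-5p were to each other (0.879). By rank (rho) they were less close (0.952 between those members), but they had been picked by r and not by rho. miR-127-3p and miR-411-3p come from the large imprinted miRNA cluster of the Dlk1-Dio3 region. Nearest to miR-181c-5p were miR-497a-5p (r = 0.960), miR-7a-5p (r = 0.937) and miR-409-5p (r = 0.933), out of 537 tested miRNAs, with the undetected readings of miR-181c-5p, miR-7a-5p and miR-409-5p at the floor.

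Nearest to miR-181a-5p were miR-205-5p (r = 0.967), miR-17-3p (r = 0.965) and miR-203-3p (r = 0.962), out of 537. These correlations include floor values: miR-181a-5p, miR-17-3p and miR-203-3p were all undetected, and so at the same floor, on the 3 G93A/G93A arrays. miR-205-5p, a miRNA of stratified epithelia, and miR-203-3p, which marks maturing keratinocytes, belong to the list of epithelial markers. On that list 5 of 7 miRNAs were tested, and miR-200a-3p and miR-141-3p were never detected. The summed scaled signal of the list was 0 to 5.36 units in G93A/G93A, 61.2 to 85.0 units in G93A/WT and 138 to 166 units in WT/WT. Undetected readings were left out of these sums, so a sum of 0 means no detected reading. The brightest of the list in each group was miR-205-5p. By limma's test, all 5 were called lower in G93A/G93A medium, against WT/WT (4.83% of all 538 tested miRNAs) as well as against G93A/WT (5.2%). Between G93A/WT and WT/WT, 0 passed (3 at an unadjusted p under 0.05). The calls rest on floor values: miR-200b-3p, miR-200c-3p, miR-203-3p and miR-429-3p were detected on 0 of 3 G93A/G93A arrays, where the floor has no spread, and entered the test through the groups in which they were detected. miR-205-5p, detected on 2 of 3 G93A/G93A arrays, averaged log2 1.75 there with the undetected array at the floor, 5.73 in G93A/WT and 6.88 in WT/WT. With the slide row in the fit, 4 of the 5 passed against WT/WT and 0 against G93A/WT. With 2 times the floor, 3 passed against WT/WT and 1 against G93A/WT. These markers moved with miR-181a-5p, and their part in its low reading in G93A/G93A was not tested.

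Other miRNAs known to act in myoblast differentiation were set beside the family. Of 18 on a list put together with earlier results of these data known, 17 were tested and miR-222-3p was never detected. Between G93A/G93A and WT/WT, 3 of 17 were lower, 0 were higher and 14 did not pass limma's test. Of all 538 tested miRNAs, 26 were lower (4.83%) and 20 were higher (3.72%). On the list, 15 of 17 differences were below zero, and the median of the 17 was −0.30, against −0.01 over all tested miRNAs. Since the list was put together with earlier results known, nothing is read from these shares. miR-125b-5p, which restrains myoblast differentiation through insulin-like growth factor 2, differed by −0.79 ± 0.11 (SE, adjusted p = 0.00929). miR-378a-3p, which promotes it by targeting the MyoD antagonist MyoR, differed by −0.65 ± 0.15 (SE, adjusted p = 0.0433). miR-23a-3p, which targets fast myosin heavy chains, differed by −0.53 ± 0.12 (SE, adjusted p = 0.0437). The miRNAs that were lower thus include one that promotes differentiation and 2 that restrain it. Over 22 alternatives the count of 3 ranged from 0 to 3. It was 0 under 6 of them, which were leaving out WT/WT 1, leaving out WT/WT 2, the slide row as a term, row 2 alone, no scaling and scaling to each array's own detected miRNAs, and 1 under 8.

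Between G93A/WT and WT/WT, 0 of 17 passed limma's test (5 at an unadjusted p under 0.05), against 21 of all 538 (3.9%). The median difference of the list was −0.03, against 0.04 over all tested miRNAs. Between G93A/G93A and G93A/WT, 1 of 17 was lower (28 of all 538, 5.2%), miR-26a-5p, which promotes myoblast differentiation by targeting Ezh2, at −0.62 ± 0.14 (SE, adjusted p = 0.0285). The median of the list was then −0.34, against −0.10 over all tested miRNAs. Over 21 alternatives the count ranged from 0 to 10. It was 0 with slide row in the fit, where the G93A groups are linked only through 1 WT/WT array per row, with the replicate block, and with G93A/G93A 1, G93A/G93A 2, G93A/WT 2 or G93A/WT 3 left out. It was 4 with G93A/G93A 3 left out, 6 with scaling to each array's own detected miRNAs and 10 without scaling.

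Markers of other cells that a muscle culture can hold were measured as well. The 4 tested fibroblast miRNAs had summed scaled signals of 343 to 430 units in G93A/G93A, 415 to 553 units in G93A/WT and 475 to 517 units in WT/WT. Of these, 1 was called lower in G93A/G93A against WT/WT, beside 26 of all 538 tested miRNAs (4.83%). It was miR-199a-5p, with a log2 difference of −0.85 ± 0.17 (SE, adjusted p = 0.0291 by limma). The leukocyte list, of interest because miR-181a is abundant in lymphoid cells, had sums of 150 to 179 units in G93A/G93A, 152 to 166 units in G93A/WT and 121 to 127 units in WT/WT. Its markers miR-142a-3p, miR-142a-5p and miR-150-5p were detected on no array. Of its 2 tested miRNAs, miR-223-3p was higher in G93A/G93A than in WT/WT, by 0.52 ± 0.12 (SE, adjusted p = 0.0433 by limma). Among all 538 tested miRNAs, 20 were called higher in this comparison (3.72%). The other tested leukocyte miRNA, miR-155-5p, differed by −0.10 ± 0.10 (SE, adjusted p = 0.588 by limma). Erythroid, neural and endothelial lists had 2, 2 and 1 tested miRNAs, none of which passed limma's test in any comparison (1, an erythroid miRNA between G93A/WT and WT/WT, at an unadjusted p under 0.05).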

How the data were processed

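Total gene signals, their errors and detected flags were read from the deposited 1-colour Agilent files of 8 arrays. Per the file headers, the deposited signal is a linear intensity. The authors' deposited table, used as an alternative, holds linear intensities too, as its values show. It lists 492 mouse miRNAs, those that every array of some group detected. The sources used here give neither the scanner software's version nor the authors' normalization. Per the labels' protocols, RNA came from 600 µl of medium and 150 ng was labelled with Cy3, and the labels do not name which medium, with 10% foetal bovine or 2% horse serum, was collected. The labels call the samples biological replicates without naming a litter or culture day, so all errors measure the spread between these samples.

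Each array was scaled to the 75th percentile over 423 miRNAs detected on all 8 arrays, undetected miRNAs were set to a floor of 1.52 units, the median over arrays of the lowest detected scaled signal, and log2 was taken. The 538 miRNAs detected on at least 2 arrays were tested in R 4.3.3 with limma 3.58.1 (lmFit, eBayes, 3 groups sharing 1 spread, 5 residual degrees of freedom), Benjamini-Hochberg adjusted at 0.05. Every adjusted p is from this test. The summed signals of the marker lists did not use the floor and left undetected readings out. The fit was first tested on simulated data. The detected flag was identical to a signal above 3 times its error in all 15048 readings. The number of arrays limits the precision.

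The members, the marker lists and the tests were chosen with earlier results of these data known. The miRNAs named are the members, the other miR-181 names, the 3 miRNAs nearest to each member by correlation, listed myoblast miRNAs that passed the test, and the muscle miRNAs. Epithelial, leukocyte and fibroblast markers were named after their values were seen. Correlations of deviations between same-numbered samples ran from −0.35 to 0.21. With groups this small and no litter or culture day named, they cannot decide whether the replicate numbers pair the samples. Alternatives covered scaling, floor, filter, slide row, replicate block, single arrays left out and the authors' values.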

Additional observations from a re-analysis of the deposited data

How the results depend on the processing

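Across 23 alternatives, 214 of 254 values for the members kept their sign and their side of limma's threshold, 22 lost the threshold, 8 gained it and 10 reversed. The causes of these changes were not tested, and in some alternatives fewer arrays or miRNAs entered. miR-181a-5p in G93A/G93A against WT/WT passed in 20 of 21 alternatives and missed with the authors' values (−1.52). Its counts here and against G93A/WT do not measure robustness. Except with its own limit, its 3 G93A/G93A arrays held 1 floor value with no spread, and it entered the test through the other groups. With the authors' values, the floor of 1.77 units also replaced its values on G93A/WT 2 and 3. Its differences from WT/WT and from G93A/WT in that setting therefore depend on the floor. miR-181d-5p in G93A/G93A against WT/WT passed in 16 of 22. It missed with the 75th percentile of each array's own detected miRNAs (−0.62), no scaling (−0.61), the slide row as a block or row 2 alone (both −0.70) and without WT/WT 1 (single arrays left out, −0.84 to −0.70). miR-181d-5p in G93A/WT against WT/WT passed in 11 of 22. It missed with own detected miRNAs (−0.25), the authors' values (−0.52), miRNAs detected on all 8 arrays (−0.67), the row as a block or row 1 alone (both −0.74) and with G93A/WT 2, G93A/WT 3 or either WT/WT array left out (−0.74 to −0.59), and was 0.10 without scaling. miR-181a-5p in G93A/G93A against G93A/WT passed in 15 of 20 and missed with quantile normalization (−0.53), the authors' values (−0.41), 2 times the floor (−0.33), the row block (−1.52) and its own limit (−0.23).

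In G93A/WT against WT/WT, miR-181a-5p passed with the 90th percentile (−0.57), the median (−0.62), quantile normalization (−1.11) and 2 times the floor (−0.51), and was 0.26 without scaling. miR-181b-5p was 0.041 with own detected miRNAs and 0.40 without scaling. Without scaling the median of all tested miRNAs moved to 0.79, and relative to it miR-181a-5p, miR-181b-5p and miR-181d-5p were at −0.53, −0.39 and −0.69, against −0.55, −0.41 and −0.71 with it. miR-181c-5p was 1.88 and passed without scaling, and was −0.36 with the authors' values. For miR-181c-5p, the signs of −0.36 and, below, 0.25 with the authors' values depend on the floor of 1.77 units. In G93A/G93A against WT/WT it was 0.42 without WT/WT 2 (single arrays left out, −0.98 to 0.42). In G93A/G93A against G93A/WT it passed with own detected miRNAs (−1.88), without scaling (−2.06) and without G93A/G93A 3 (single arrays left out, −2.06 to −1.43), and was 0.25 with the authors' values. There miR-181b-5p was 0.087 with the authors' values, and miR-181d-5p was 0.13 with quantile normalization and 0.039 with the row block.

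The count of 46 called miRNAs between G93A/G93A and WT/WT was 10 with own detected miRNAs (2 higher, 8 lower), 14 without scaling (7 and 7), 29 of 423 detected on all arrays, 7 with the row block (1 and 6), 9 within row 2 (0 and 9) and 7 to 57 with single arrays left out. It was 7 without WT/WT 1, 21 without WT/WT 2, 24 without G93A/G93A 1 and 22 without G93A/G93A 2. The count of 21 between G93A/WT and WT/WT (17 higher, 4 lower) was 42 with own detected miRNAs (42 and 0), 130 without scaling (130 and 0), 4 with the authors' values (1 and 3), 34 with 2 times the floor (12 and 22), 37 with miRNAs detected on 1 array or more (21 and 16) and 7 to 61 with single arrays left out. Leaving out WT/WT 1 gave 7, G93A/WT 2 gave 11, G93A/WT 1 gave 34 and G93A/G93A 3 gave 61. It was split 6 higher and 14 lower with quantile normalization. limma called 0 of 423 miRNAs detected on all arrays (103 at an unadjusted p under 0.05). The count of 57 between G93A/G93A and G93A/WT (29 higher, 28 lower) was 149 without scaling (1 and 148), 0 with the row block (73 at an unadjusted p under 0.05) and 38 to 122 with single arrays left out, 122 being without G93A/G93A 3. It was split 4 and 76 with own detected miRNAs and 40 and 6 with the authors' values.

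With the replicate block, the counts were 10, 8 and 37 in the order above, and miR-181d-5p no longer passed against WT/WT in G93A/G93A (−0.74) or G93A/WT (−0.64); no other member's call changed. The other arms were detected on no array, so no alternative was run for them. Signals near 3 times their error limit all statements on miR-181a-5p and miR-181c-5p.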
